A study of Mus musculus with 18 samples.

Results

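Active AID was compared with its catalytically inactive form in NIH-3T3 cells that also carried a UNG vector. NIH-3T3 is a mouse fibroblast line, so the cells are not B cells. The comparison used 6 of the 18 sequenced libraries, 3 labelled UNG AID and 3 labelled UNG AID-E58Q, and was read over the 674 of 679 reporter positions that had at least 1000 quality-passed base calls in every one of the 18 libraries. UNG AID cells had received retroviral vectors for mOrangeSTOP, AID-ER and UNG. UNG AID-E58Q cells had received mOrangeSTOP, AID-E58Q-ER and UNG. Transduced cells had been selected with puromycin or hygromycin, and the tables hold no level of AID or UNG. Both groups were treated for 11 days with OHT at 1 µM, which activates the ER fusion, so OHT, the reporter and added UNG were common to them. The remaining 12 libraries held AID or AID-E58Q with an empty vector (Control) or with Ugi, a UNG inhibitor, and entered only where the AID effect was set against theirs. Each group had 3 libraries, numbered by experiment. Nothing in the labels tells if each experiment had its own transduction, so the p-values reflect only how these libraries vary, part of which may be technical.

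AID, activation-induced cytidine deaminase, turns cytosine in DNA into uracil, and in B cells this starts somatic hypermutation and class switching of the antibody genes. Replication over a uracil gives a C>T change, or G>A when the other strand was hit. UNG, uracil-DNA glycosylase, removes the uracil and leaves a site without a base. Such a site can be repaired, or copied by polymerases that place any base opposite it, which can give C>A and C>G transversions besides C>T. AID prefers cytosines in WRC, with WRCY and above all AGCT as its best-known targets, and seldom uses SYC. In these motifs W stands for A/T, S for C/G, R for a purine and Y for a pyrimidine.

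The reporter held 7 AGCT sites, and all 7 are shown because they carry most of the C>G/G>C difference. Numbering starts at 1 with the first coding base, the strand shown is the coding strand, 5′ to 3′, and capitals mark AGCT. The reporter is a transgene, so it has no coordinates in the mouse genome. The G of AGCT is the C of the same motif on the other strand, so a site offers AID a target base on each strand.
AGCT 149, positions 143 to 158: ccgctaAGCTgaaggt
AGCT 230, positions 224 to 239: aggcctAGCTgaagca
AGCT 266, positions 260 to 275: acttcaAGCTgtcctt
AGCT 383, positions 377 to 392: aggtgaAGCTgcgcgg
AGCT 512, positions 506 to 521: ggctgaAGCTgaagga
AGCT 578, positions 572 to 587: ccgtgcAGCTgcccgg
AGCT 698, positions 692 to 707: tggacgAGCTgtacaa
All 7 sites were followed by a G in the coding strand. The C of the site at 698 lies at position 700, which had too few calls in UNG AID-E58Q of experiments 1 and 2, so 13 AGCT bases were tested. A base change is written as the reference base, its position and the called base: C151G is C called as G at position 151.

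The libraries held 86430385, 95011754 and 81694257 quality-passed calls in UNG AID (experiments 1, 2 and 3), against 27318629, 24915866 and 86121724 in UNG AID-E58Q. Depth therefore moved with the group in experiments 1 and 2, and its part in the results was not tested. Reads at positions 45 to 59 stopped just under the same number, 499733 to 499919, in 4 of these 6 libraries, and reached 185415 and 162246 in UNG AID-E58Q of experiments 1 and 2. At the median coverage, a count of 0 allowed a frequency of up to 0.00212% in the deepest of the 6 libraries and 0.00801% in the shallowest, taking 3 counts as the limit. Because PCR products were read and molecules were not tagged, such limits cover counting error only. The coverage minimum left out positions 700 to 704. Position 700 lay just outside it, with 909 calls in its shallowest library, and positions 705 and 699 lay just inside, with 1029 and 1046.

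With added UNG, active AID left mainly C>G/G>C transversions at AGCT. Averaged over the 13 AGCT bases, C>G/G>C came to 48.4, 33.0 and 112 calls per 10000 in UNG AID, against 1.52, 0.815 and 1.32 in UNG AID-E58Q. All UNG AID libraries lay far above all UNG AID-E58Q libraries, and the ratio of the group means was 52.9. C>T/G>A at the same bases came to 18.999, 18.6 and 61.3 calls per 10000 in UNG AID, against 2.45, 1.89 and 4.30 in UNG AID-E58Q, a ratio of 11.5. C>A/G>T was the smallest of the 3, with 14.2, 4.97 and 19.8 calls per 10000 in UNG AID, against 1.49, 1.46 and 2.14 in UNG AID-E58Q, a ratio of 7.65. Groups did not overlap in any of the 3 substitution classes, and experiment 3 was the highest of the UNG AID libraries in each. These class means are descriptions: with 3 libraries against 3 a two-sided exact permutation test cannot go below 0.1.

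**Figure D1:**
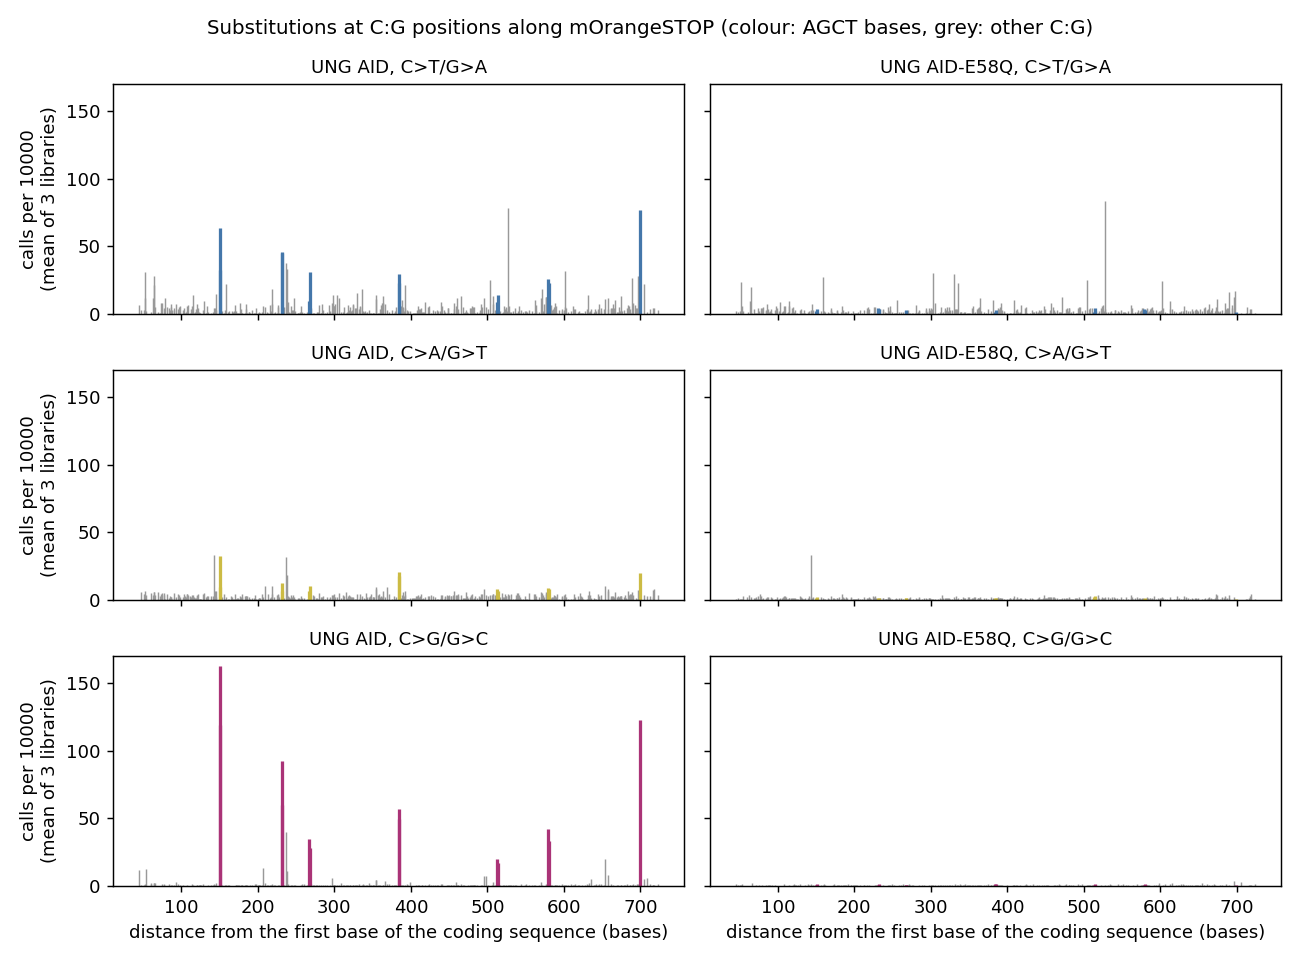
Mean frequency of each substitution class (calls per 10000, mean of 3 libraries) at the C:G positions along mOrangeSTOP, UNG AID on the left and UNG AID-E58Q on the right, with AGCT bases in colour and other C:G positions in grey. The tallest C>G/G>C bars in UNG AID stand at AGCT, up to 163 at position 151, while the C>T/G>A bar at position 527 is about as tall in UNG AID (78.3) as in UNG AID-E58Q (83.3).

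Each position and substitution was then tested in edgeR (quasi-likelihood test over all 18 libraries, Benjamini-Hochberg over the 2022 position-by-substitution features, threshold 0.05). C>G/G>C was higher in UNG AID at 16 of the 426 C:G positions tested, 3.76% of them, and lower at 0. Of these 16, 12 were AGCT bases out of 13 tested, 2 were other WRCY/RGYW bases out of 23, 1 was a WRC base followed by a purine (WRCR/YGYW) out of 30, and 1 was an SRC/GYS base out of 124. All 13 AGCT bases had UNG AID libraries above every UNG AID-E58Q library, against 8.92% of all C:G positions. Their median log2 fold change was 5.21, against 0.27 over all 426 positions. None of the 96 WYC/GRW and 139 SYC/GRS positions was called for C>G/G>C.

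The experiment number pairs the libraries by the criterion used, a correlation of their deviations over 0.1 across all features. Over C:G features alone, the UNG pairs of experiments 1 and 2 fell short of it, at -0.0204 and 0.0722. A fit with the experiment as a block called more positions. With the block, C>G/G>C was higher at 28 positions (6.57%): all 13 AGCT bases, 4 other WRCY/RGYW, 4 WRCR/YGYW, 3 SRC/GYS and 3 WYC/GRW bases, and position 45 at the end of the stretch. The C>G/G>C calls also held best when single libraries were left out: 10 of the 16 stayed past the threshold in all 6 omissions, with 10 to 19 calls in each. The count was 10 without UNG AID-E58Q of experiment 3. Without all libraries of experiment 1, edgeR called 0 C>G/G>C positions (31 at an unadjusted p under 0.05), and 19 with the block.

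The highest C>G frequency was at C151, the C of the first AGCT site, in codon 51. C151G reached 143, 85.3 and 260 calls per 10000 in UNG AID, against 1.89, 1.01 and 1.57 in UNG AID-E58Q (a log2 fold change of 6.76 ± 0.80 SE, adjusted p = 0.000238 in edgeR). These were 2814, 2042 and 5388 calls in UNG AID against 13, 6 and 34 in UNG AID-E58Q. Its partner on the other strand, G150C, reached 78.3, 74.4 and 205 calls per 10000 in UNG AID, against 1.68, 0.983 and 0.759 in UNG AID-E58Q (a log2 fold change of 6.72 ± 1.05 SE, adjusted p = 0.0019 in edgeR). Both bases of the site therefore lay among the strongest C>G/G>C positions, with the lowest UNG AID library still above every UNG AID-E58Q library.

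At the stretch's far end, G699C of the AGCT site at 698 reached 83.5, 51.7 and 232 calls per 10000 in UNG AID, against 0, 0 and 2.42 in UNG AID-E58Q (a log2 fold change of 5.93 ± 1.25 SE, adjusted p = 0.0231 in edgeR). Coverage was thin there: the UNG AID-E58Q values rest on 0 of 1046, 0 of 1135 and 2 of 8269 calls, and those of UNG AID on 29 of 3473, 23 of 4448 and 170 of 7326. The remaining called AGCT bases had UNG AID means between 19.9 calls per 10000 at G513C and 92.1 at G231C, and UNG AID-E58Q means between 0.708 and 1.62. G513C itself had 15.2, 9.83 and 34.7 calls per 10000 in UNG AID, against 1.25, 0 and 0.868 in UNG AID-E58Q. The 1 AGCT base that missed the threshold was its neighbour: C514G had 9.77, 3.28 and 37.6 calls per 10000 in UNG AID, against 1.26, 1.05 and 2.13 in UNG AID-E58Q (adjusted p = 0.174 in edgeR, 0.00331 with the block). The site at 512 thus had the lowest C>G/G>C values of the 7 sites, and its groups still did not overlap.

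**Figure D2:**
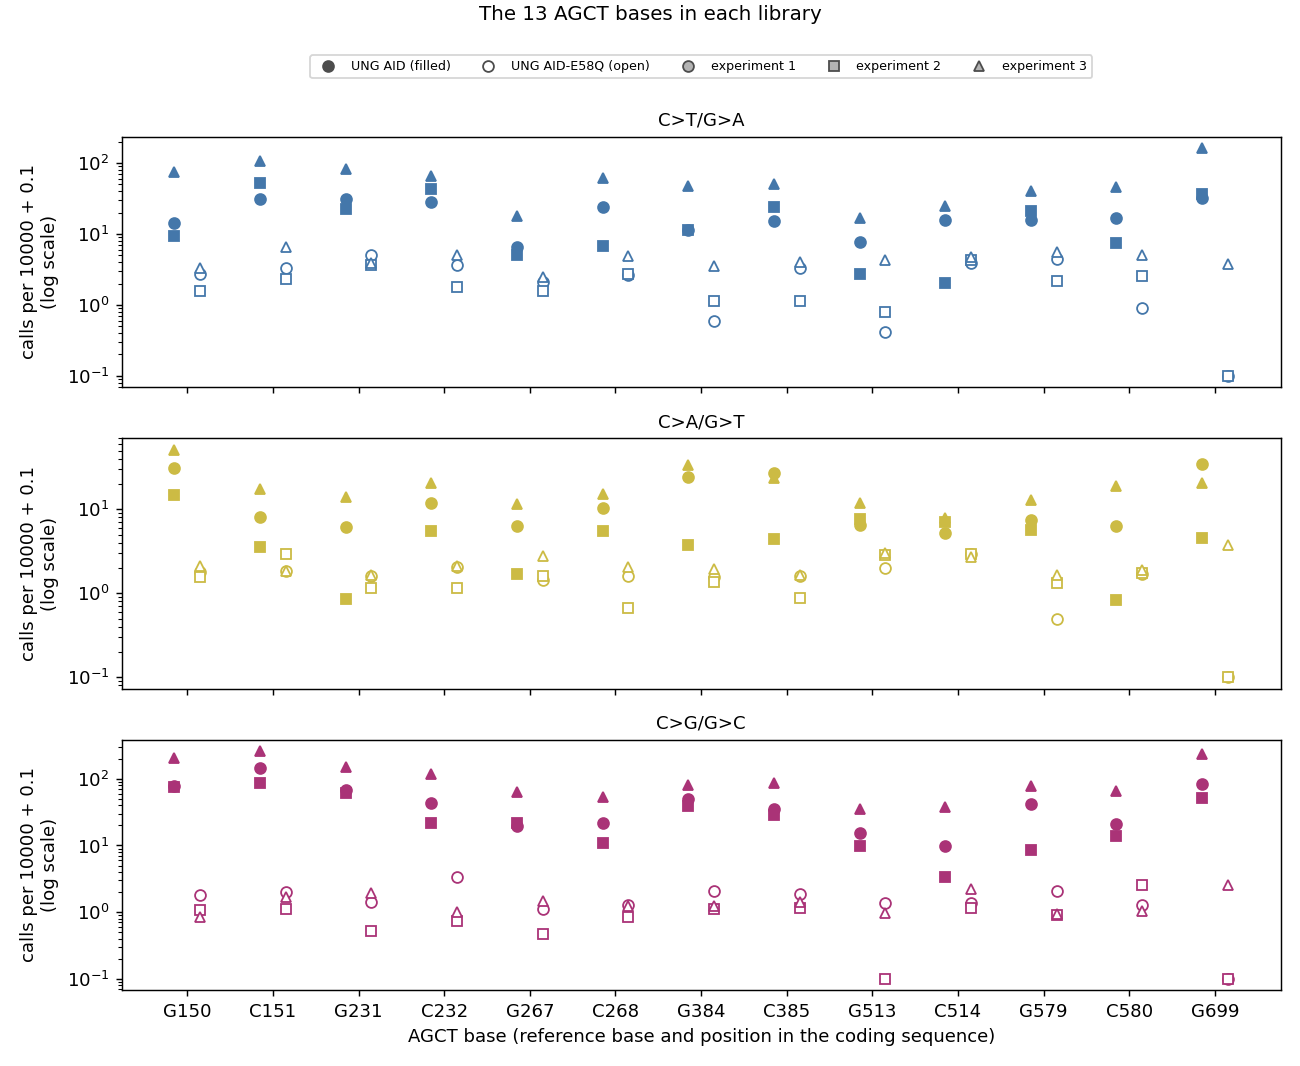
Frequency of C>T/G>A, C>A/G>T and C>G/G>C (calls per 10000 plus 0.1, log axis) at each of the 13 AGCT bases in each library, UNG AID filled and UNG AID-E58Q open, with the symbol giving the experiment. In C>G/G>C every filled symbol lies above every open one at its base, while C>T/G>A overlaps at G513 and C514, and C>A/G>T at G231, G267 and C580.

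Outside AGCT, the strongest C>G/G>C position was G237, in the sequence AGCA close behind the AGCT site at 230. The window is shown because both its inner bases were called, with capitals marking AGCA.
AGCA 236, positions 230 to 245: agctgaAGCAccccgc
G237C had 38.0, 20.3 and 61.5 calls per 10000 in UNG AID, against 0.599, 0 and 1.01 in UNG AID-E58Q (a log2 fold change of 6.07 ± 0.99 SE, adjusted p = 0.00204 in edgeR). Its neighbour C238G was nearly level across experiments, with 10.6, 11.8 and 11.9 calls per 10000 in UNG AID, against 1.02, 0.434 and 1.16 in UNG AID-E58Q (a log2 fold change of 3.66 ± 0.64 SE, adjusted p = 0.00356 in edgeR). The G, whose strand reads WRCT in the other direction, was therefore higher in C>G/G>C than the C, which is followed by a purine, in every UNG AID library. G207C, another WRCY/RGYW base, had 8.76, 12.8 and 19.01 calls per 10000 in UNG AID, against 1.77, 1.09 and 0.985 in UNG AID-E58Q. The last call, C54G at an SRC base, was named after its values were seen: it had 30.4, 0.181 and 8.56 calls per 10000 in UNG AID, against 0.325, 0.124 and 0.422 in UNG AID-E58Q (adjusted p = 0.0307 in edgeR). Its groups overlapped, since experiment 2 of UNG AID lay below 2 of the UNG AID-E58Q libraries, and it stands in the stretch where reads stopped just under the same number.

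C>T/G>A also rose with active AID, at fewer positions. It was higher in UNG AID at 5 of 426 positions (1.17%), all of them AGCT bases, and lower at 0. C151T had 31.3, 51.6 and 108 calls per 10000 in UNG AID, against 3.19, 2.18 and 6.36 in UNG AID-E58Q (a log2 fold change of 4.01 ± 0.90 SE, adjusted p = 0.0293 in edgeR). C232T had 27.9, 42.7 and 65.7 calls per 10000 in UNG AID, against 3.52, 1.69 and 4.89 in UNG AID-E58Q, and the other calls were G231A, C385T and G699A. At 11 of the 13 AGCT bases the groups did not overlap for C>T/G>A, against 9.62% of all C:G positions, and the median log2 fold change was 3.41 at AGCT and 0.32 over all positions. With the experiment as a block, 28 positions were higher (6.57%), 12 of them AGCT and 7 of them other WRCY/RGYW bases, and 1 was lower (0.235%), G472A at an SYC/GRS base, named after its values were seen. The 5 calls did not hold in every omission of a single library. They held without UNG AID of experiment 1 (5 calls) and without that of experiment 2 (7 calls). The count was 0 without UNG AID of experiment 3 and without any 1 of the UNG AID-E58Q libraries. Without all libraries of experiment 1 it was 0 in edgeR (19 at an unadjusted p under 0.05, and 16 calls with the block).

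C>A/G>T was called at 7 of 426 positions (1.64%), all higher in UNG AID, and these were less concentrated at AGCT: 4 of 13 AGCT bases, 1 of 23 other WRCY/RGYW bases and 2 of 96 WYC/GRW bases. G150T had 31.2, 14.9 and 51.3 calls per 10000 in UNG AID, against 1.68, 1.47 and 2.01 in UNG AID-E58Q (a log2 fold change of 4.22 ± 0.98 SE, adjusted p = 0.0367 in edgeR). G237T had 16.2, 15.3 and 63.3 calls per 10000 in UNG AID, against 0.799, 1.93 and 2.23 in UNG AID-E58Q, and the other calls at WRCY/RGYW, AGCT included, were C268A, G384T and G579T. At 10 of 13 AGCT bases the groups did not overlap, against 12.4% of all C:G positions. The median log2 fold change was 2.82 at AGCT and 0.86 over all positions. UNG AID of experiment 1, described further on, stood high in this class at most positions. With the block, 19 positions were higher (4.46%), among them 6 AGCT, 6 WRCR/YGYW, 4 WYC/GRW and 3 other WRCY/RGYW bases. None of the 7 calls held in all 6 omissions of single libraries: the count was 3 without UNG AID of experiment 1, 15 without that of experiment 2, and 0 without that of experiment 3 or without any 1 of the UNG AID-E58Q libraries. Without experiment 1 it was 0 (24 at an unadjusted p under 0.05), and 11 with the block.

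The 2 WYC/GRW bases with a C>A call are shown because neither is a WRC target and both read gttCa, with the capital marking the changed C.
position 210, positions 203 to 217: ctcagttCacctacg
position 369, positions 362 to 376: gcgagttCatctaca
C210A had 9.28, 4.07 and 18.4 calls per 10000 in UNG AID, against 1.00, 0.187 and 1.43 in UNG AID-E58Q (a log2 fold change of 3.52 ± 0.77 SE, adjusted p = 0.0259 in edgeR). C369A had 8.11, 10.4 and 9.76 calls per 10000 in UNG AID, against 1.79, 1.26 and 1.84 in UNG AID-E58Q (a log2 fold change of 2.51 ± 0.55 SE, adjusted p = 0.0259 in edgeR). The 3 UNG AID libraries were close together at C369A, including that of experiment 1, and well above the UNG AID-E58Q libraries. Over the 96 WYC/GRW bases, however, the C>A/G>T medians of UNG AID were 5.37, 1.01 and 1.47 in experiments 1, 2 and 3. The value of experiment 1 thus stood less far above its own class level than those of experiments 2 and 3. C369A lost its call when coverage was scaled by each library's SYC/GRS median, a setting chosen after seeing the data. In Control AID the same change had 1.53, 0.803 and 2.25 calls per 10000, below all 3 UNG AID libraries, but the difference between the AID effects with UNG and with the empty vector was not called (log2 difference 1.46 ± 0.76 SE, adjusted p = 1.00 in edgeR).

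Away from AGCT the differences between the groups were smaller. At the 23 other WRCY/RGYW bases, C>T/G>A averaged 9.15, 5.996 and 17.99 calls per 10000 in UNG AID, against 4.23, 2.74 and 5.46 in UNG AID-E58Q. There C>G/G>C averaged 4.23, 2.71 and 6.77 in UNG AID, against 0.958, 0.478 and 0.804 in UNG AID-E58Q, and C>A/G>T averaged 4.20, 2.97 and 7.73, against 1.00, 1.66 and 1.33. The 3 substitution classes were thus much closer to each other than at AGCT, and none of their groups overlapped. At the 30 WRCR/YGYW bases C>T/G>A averaged 11.7, 6.42 and 15.1 calls per 10000 in UNG AID, against 6.25, 3.67 and 6.02 in UNG AID-E58Q, and C>G/G>C only 2.16, 1.49 and 2.74, against 1.40, 0.733 and 0.963. At the 139 SYC/GRS bases C>G/G>C averaged 0.805, 0.413 and 0.395 in UNG AID, against 0.788, 0.396 and 0.376 in UNG AID-E58Q. C>T/G>A at SYC/GRS averaged 2.60, 3.45 and 3.21, against 2.94, 2.79 and 3.41, so the groups overlapped in both.

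**Figure D3:**
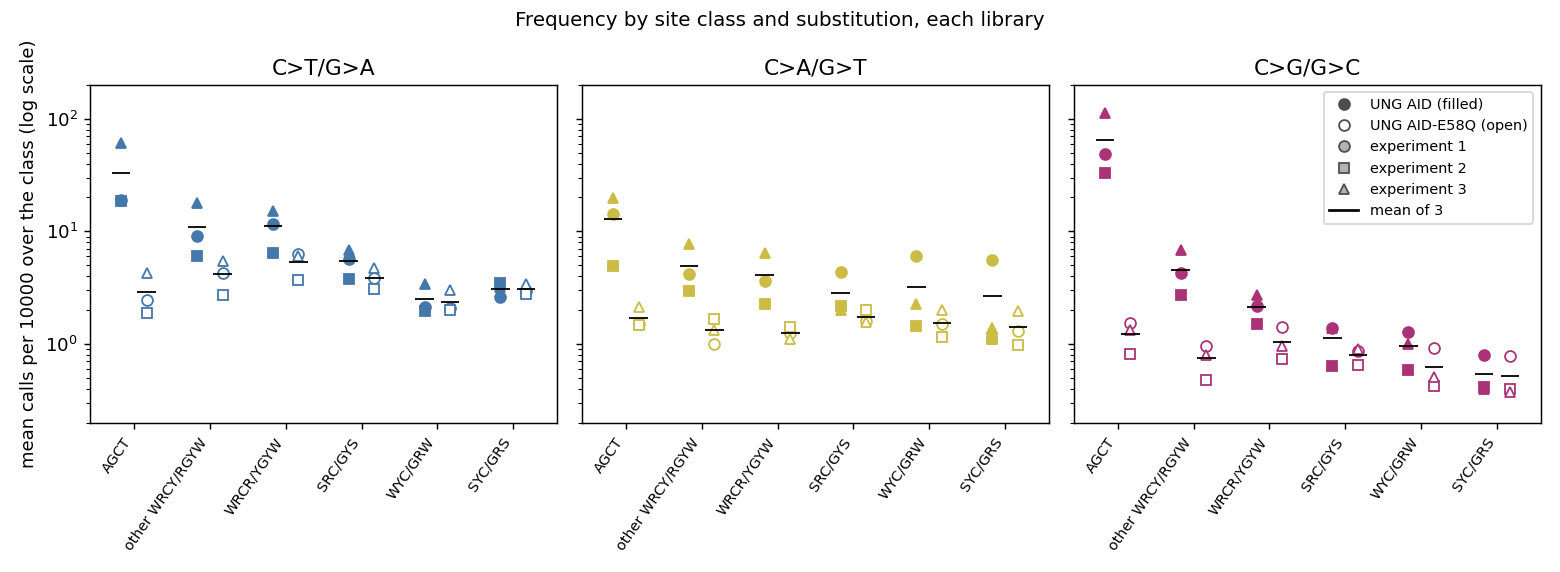
Mean frequency over the positions of each site class (calls per 10000, log axis) for C>T/G>A, C>A/G>T and C>G/G>C in each library, UNG AID filled and UNG AID-E58Q open, the symbol giving the experiment and the bar the mean of 3 libraries. C>G/G>C separates most at AGCT (ratio of means 52.9) and least at SYC/GRS (1.03), and UNG AID of experiment 1 stands high in C>A/G>T at SYC/GRS.

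The excess of UNG AID over the mean of the UNG AID-E58Q libraries had a different make-up in each motif. At AGCT bases the excess was 61.4% ± 1.93 C>G/G>C (SD, n = 3), 27.8% ± 5.65 C>T/G>A and 10.9% ± 5.11 C>A/G>T. The C>G/G>C share was 62.3%, 62.7% and 59.1% in experiments 1, 2 and 3, a spread much narrower than that of the frequencies themselves. C>G/G>C was the largest of the 3 at 12, 10 and 12 of the 13 AGCT bases in experiments 1, 2 and 3. By the mean of the 3 libraries, its share ran between 42.7% at C268 and 73.6% at G267, the partner bases of the same site, with a median of 57.9% over the 13 bases.

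At the other WRCY/RGYW bases the excess was 29.9% ± 6.59 C>G/G>C, 43.6% ± 9.39 C>T/G>A and 26.6% ± 3.02 C>A/G>T (SD, n = 3). At WRCR/YGYW it was 13.2% ± 4.21 C>G/G>C, 55.3% ± 11.2 C>T/G>A and 31.5% ± 7.48 C>A/G>T. In UNG AID of experiment 1 these C>A/G>T shares do not mark the motifs. Its C>A/G>T mean was 4.20 calls per 10000 at other WRCY/RGYW and 3.64 at WRCR/YGYW, below 5.52 at SYC/GRS. In experiments 2 and 3 the C>A/G>T means of both motifs lay above those at SYC/GRS, 1.11 and 1.38. The C>G/G>C share at AGCT was above that at both other motifs in every UNG AID library. The same held in every Control AID library, with mean shares of 32.2% at AGCT, 20.3% at other WRCY/RGYW and 7.68% at WRCR/YGYW. This order of the motifs was therefore not particular to added UNG. Without G237, the strongest of the other WRCY/RGYW bases, the C>G/G>C share there was 21.4%, 36.2% and 18.9% in experiments 1, 2 and 3, and without C238 that of WRCR/YGYW was 9.39%, 7.08% and 9.96%. The 13 AGCT bases held 67.0%, 94.9% and 82.8% of the C>G/G>C excess summed over all 426 C:G positions, 31.6%, 71.6% and 40.7% of the C>T/G>A excess and 10.0%, 37.7% and 36.9% of the C>A/G>T excess in experiments 1, 2 and 3. Concentration at AGCT was thus highest for C>G/G>C in each experiment. These sums are net of positions below the background, which was the mean of the 3 UNG AID-E58Q libraries. Over all C:G positions C>T/G>A averaged 3.29, 2.73 and 4.03 calls per 10000 in those libraries, lowest in experiment 2. The high shares of experiment 2 therefore depend on that choice of background.

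**Figure D4:**
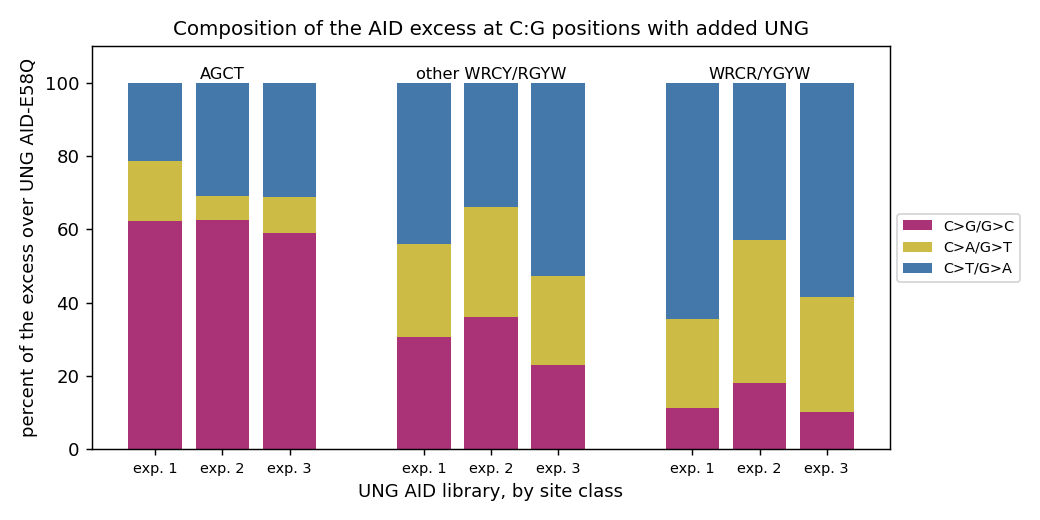
Share of C>G/G>C, C>A/G>T and C>T/G>A (percent of the excess over the mean of the UNG AID-E58Q libraries) in each UNG AID library for AGCT, other WRCY/RGYW and WRCR/YGYW bases, stacked to 100. C>G/G>C makes up 59.1% to 62.7% of each AGCT bar and 10.3% to 18.05% of each WRCR/YGYW bar.

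The strands of AGCT were compared over the 6 sites with both bases tested. C>G on the C side averaged 45.4, 27.1 and 103 calls per 10000 in UNG AID, and G>C on the G side 45.6, 35.7 and 102. C>T on the C side averaged 21.6, 22.3 and 59.6 calls per 10000, and G>A on the G side 14.2, 11.9 and 46.3. C>A on the C side averaged 11.4, 4.37 and 17.1 calls per 10000, and G>T on the G side 13.6, 5.65 and 22.5. In all 3 experiments the C side was thus above the G side for C>T and below it for C>A. The order for C>G differed between experiments. Both sides were read in the same libraries, so the spread between experiments does not measure these differences. They were not tested. Over the 36 WRCY/RGYW positions, AGCT included, the C>G/G>C frequencies of any 2 UNG AID libraries had a Spearman rho of 0.886 to 0.924. These positions share a library and its depth, so the values describe how alike the site order was.

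The AGCT site at 230 overlaps the in-frame stop codon that gives mOrangeSTOP its name, codon 77, TAG at positions 229 to 231. A transversion at G231 turns TAG into a tyrosine codon, and G231A turns it into TAA, another stop. Transversions at G231 came to 74.2, 61.2 and 162 calls per 10000 in UNG AID, against 2.87, 1.47 and 3.36 in UNG AID-E58Q. G231A came to 30.8, 22.5 and 81.2 calls per 10000 in UNG AID, against 4.97, 3.56 and 3.83 in UNG AID-E58Q (a log2 fold change of 3.44 ± 0.78 SE, adjusted p = 0.0307 in edgeR). Tyrosine codons thus outnumbered TAA in every UNG AID library and not in any UNG AID-E58Q library. They were 70.1% ± 3.32 of all changes at G231 in UNG AID and 37.5% ± 8.82 in UNG AID-E58Q (SD, n = 3 each). In Control AID the tyrosine share was 24.5%, 14.6% and 34.1%, and in Ugi AID 4.04%, 5.45% and 0.999%, so both lay below all UNG AID libraries. Among the few changes in the other AID-E58Q groups it ran between 37.3% and 64.2% with the empty vector and between 41.9% and 62.5% with Ugi. Nearly all tyrosine codons in UNG AID came from G231C, with 68.1, 60.4 and 148 calls per 10000, against 1.34, 0.419 and 1.82 in UNG AID-E58Q (a log2 fold change of 6.22 ± 0.97 SE, adjusted p = 0.0019 in edgeR). G231T had 6.14, 0.747 and 13.8 calls per 10000 in UNG AID, against 1.53, 1.05 and 1.55 in UNG AID-E58Q, with overlapping groups (adjusted p = 0.352 in edgeR). The 6 substitutions at T229 and A230 ran between 0.0517 and 9.09 calls per 10000 in UNG AID and between 0.197 and 8.66 in UNG AID-E58Q, and none was called.

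Experiment 1 of UNG AID stood apart in C>A/G>T. At the 139 SYC/GRS bases, the motif AID seldom uses, its median was 4.95 calls per 10000, against 0.776 and 1.21 in UNG AID of experiments 2 and 3 and 0.712 to 1.77 in the other 17 libraries of the series. It was the highest of the 3 UNG AID libraries at 130 of these 139 positions (93.5%) and at 317 of all 426 C:G positions (74.4%). At the same positions its median for C>T/G>A was 1.17, within the 0.872 to 3.31 of the other 17 libraries, and for C>G/G>C 0.771, just above their 0.285 to 0.739. At AGCT, experiment 1 was the highest UNG AID library for C>A/G>T at 2 of 13 bases and for C>G/G>C and C>T/G>A at 0. The SYC/GRS mean for C>A/G>T was 5.52, 1.11 and 1.38 in UNG AID, against 1.30, 0.979 and 1.95 in UNG AID-E58Q. Its ratio of group means was 1.89 with all experiments and 0.850 without experiment 1, so the difference at SYC/GRS rested on that library.

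Taken alone, experiment 1 had ratios of UNG AID to UNG AID-E58Q at AGCT of 31.9 for C>G/G>C, 7.77 for C>T/G>A and 9.50 for C>A/G>T. In experiments 2 and 3 these ratios were 40.5 and 84.8 for C>G/G>C, 9.82 and 14.3 for C>T/G>A, and 3.39 and 9.28 for C>A/G>T. C>G/G>C had the largest ratio in each experiment. With the library's own SYC/GRS mean as the background in place of UNG AID-E58Q, an alternative chosen after seeing the data, the C>G/G>C share of the AGCT excess was 65.5%, 63.2% and 59.3% in experiments 1, 2 and 3. Against the UNG AID-E58Q background the C>T/G>A share, 21.3%, 30.9% and 31.2%, was above the C>A/G>T share, 16.5%, 6.45% and 9.68%, in all 3.

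**Figure D5:**
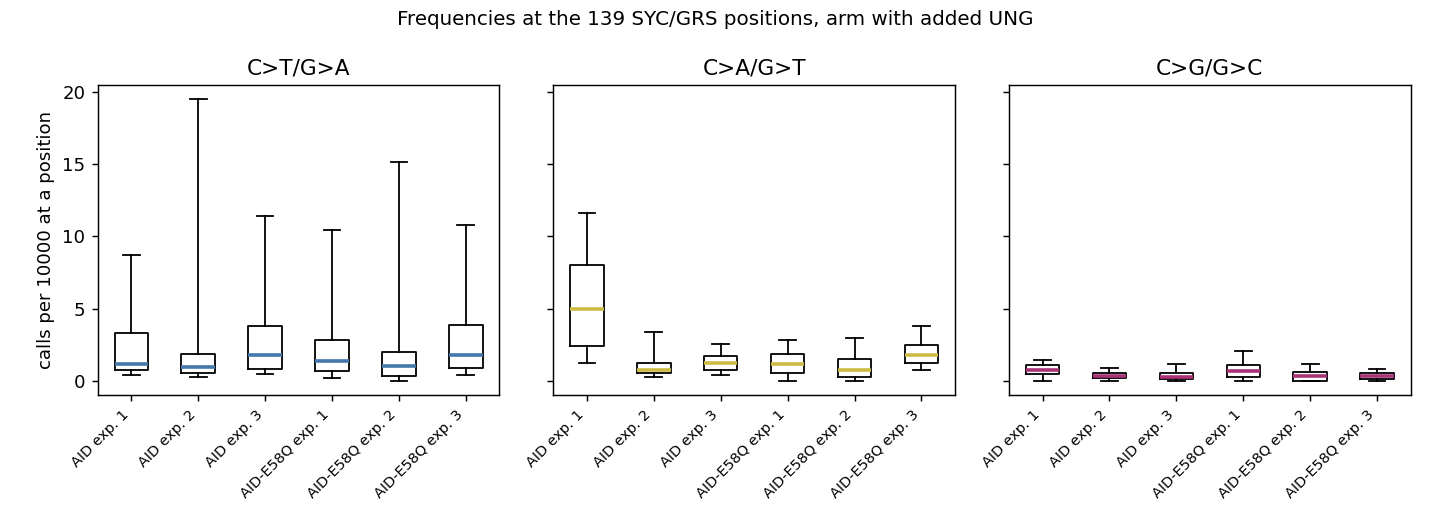
Frequency of each substitution class (calls per 10000) at the 139 SYC/GRS positions in each UNG AID and UNG AID-E58Q library, with boxes from the lower to the upper quartile, a line at the median and whiskers at the 5th and 95th percentiles. The C>A/G>T box of UNG AID in experiment 1 (median 4.95) lies above those of the other libraries (medians 0.736 to 1.77).

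At A:T positions the groups lay together. A>G/T>C averaged 2.08, 1.20 and 1.701 calls per 10000 over the 248 A:T positions in UNG AID, against 1.87, 1.36 and 1.72 in UNG AID-E58Q. A>T/T>A averaged 0.928, 0.585 and 0.889 in UNG AID, against 0.789, 0.584 and 0.894 in UNG AID-E58Q. A>C/T>G averaged 0.962, 0.580 and 5.79 in UNG AID, against 0.901, 0.645 and 5.93 in UNG AID-E58Q. The high values of experiment 3 were shared by all 6 of its libraries in the series (5.67 to 5.93), against 0.808 to 0.988 in experiment 1 and 0.580 to 0.645 in experiment 2, so A>C/T>G followed the experiment and not AID. edgeR called 0 of the 744 A:T features in either direction (0%), with 9 at an unadjusted p under 0.05. With the block it called 3, all lower in UNG AID (0.403%): A250C, A250T and T596C, named after their values were seen.

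The background of UNG AID-E58Q was uneven, and some of its highest positions were about as high in UNG AID while others were lower there. G527A had 91.3, 104 and 39.1 calls per 10000 in UNG AID, against 104, 106 and 39.6 in UNG AID-E58Q. C143A had 50.6, 38.7 and 10.8 in UNG AID, against 47.7, 44.98 and 7.32 in UNG AID-E58Q. At both, the groups overlapped and experiment 3 was the lowest in each group. G303A had 11.8, 12.9 and 16.8 in UNG AID, against 27.0, 39.4 and 24.3 in UNG AID-E58Q. G330A had 5.39, 24.4 and 16.6 in UNG AID, against 28.1, 30.3 and 29.9 in UNG AID-E58Q. At these 2 positions every UNG AID library lay below every UNG AID-E58Q library, but neither passed the threshold in edgeR (adjusted p = 1.00 each, and 0.445 for G303A and 0.736 for G330A with the block). For C>G/G>C the 3 highest UNG AID-E58Q means, 2.38 to 3.69 calls per 10000, were those of C696G, C705G and G598C, none of which was called.

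Last, the AID effect with added UNG was set against that with the empty vector and with Ugi, as a difference of log2 fold changes. At AGCT the C>G/G>C means were 64.5 ± 41.9 calls per 10000 in UNG AID, 37.2 ± 18.7 in Control AID and 2.28 ± 1.28 in Ugi AID, and the C>T/G>A means 33.0 ± 24.6, 74.8 ± 42.8 and 226 ± 211 (SD, n = 3 each). The make-up of the AGCT excess differed more clearly than its size: C>G/G>C was 59.1% to 62.7% of it in UNG AID libraries, against 29.0% to 33.9% in Control AID libraries and 0.180% to 0.793% in Ugi AID libraries. At other WRCY/RGYW the mean C>G/G>C frequency was 4.57 calls per 10000 in UNG AID and 4.43 in Control AID. At WRCR/YGYW it was 2.13 and 1.91, so outside AGCT the 2 arms were close. Against the empty vector edgeR called 0 positions in any class (9, 9 and 12 of 426 C:G positions at an unadjusted p under 0.05 for C>T/G>A, C>A/G>T and C>G/G>C). With the block it called 1, G45T, with the smaller AID effect in UNG (0.235%), named after its values were seen. For C151G the difference from Control was 0.59 ± 0.90 (log2, SE), with 83.3, 53.3 and 127 calls per 10000 in Control AID.

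Against Ugi, C>G/G>C had a larger AID effect with UNG at 3 of 426 positions (0.704%), all C bases of AGCT: C151G, C268G and C385G. C385G had 35.1, 28.1 and 85.4 calls per 10000 in UNG AID, against 1.46, 0.852 and 0.622 in Ugi AID (difference 4.83 ± 0.98 SE on the log2 scale, adjusted p = 0.0439 in edgeR). C>T/G>A had a smaller AID effect with UNG at 2 positions (0.469%), and C>A/G>T differed at 0 (37 at an unadjusted p under 0.05 in edgeR). The windows of the 2 positions are shown because both lie outside WRCY: position 534 is a WRCR base and position 641 an SRC base, with the capital marking the C.
position 534, positions 527 to 541: gccactaCacctccg
position 641, positions 634 to 648: gactacaCcatcgtg
C534T had 1.54, 1.26 and 4.81 calls per 10000 in UNG AID, against 53.1, 31.7 and 235 in Ugi AID, while both AID-E58Q groups lay between 0.979 and 2.16. C641T had 2.86, 3.93 and 5.07 in UNG AID, against 43.5, 44.3 and 212 in Ugi AID. The UNG AID-E58Q values were 1.46, 1.61 and 2.16 for C534T and 3.08, 3.21 and 4.23 for C641T. UNG AID was near these, except for C534T in experiment 3, where 4.81 stood against 2.16. With the block, the AID effect in UNG was smaller at 35 positions for C>T/G>A (8.22%), larger at 6 for C>A/G>T (1.41%), and larger at 14 (3.29%) and smaller at 1 (0.235%) for C>G/G>C. These calls against Ugi did not hold when single libraries were left out. For C>T/G>A the count was 0 or 1 in each of the 12 omissions. For C>G/G>C it was 4 without UNG AID of experiment 2 and 0 in the other 11.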

How the data were processed

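Genomic DNA of the transduced cells was amplified over the reporter for 25 cycles, sheared to 100 to 300 base pairs and amplified for 10 more, per the labels' protocols. The deposited tables give, per the file headers, the counts of base calls with a quality over 20 and of each of the 12 substitutions per position, as raw counts. Tools named, per the submitters' processing notes, were SAMtools 0.1.11, Novoalign 2.07.04 and CASAVA 1.7, with their settings not given. Substitution counts were divided by the coverage and are given per 10000 calls. C>A/G>T was kept apart from C>G/G>C. edgeR 4.0.16 (R 4.3.3) was fitted to all 18 libraries in 6 groups with the logarithm of the coverage as offset, and p-values were adjusted by the Benjamini-Hochberg method over 2022 features. The script was tested on simulated counts. Fits of all groups share 1 estimate of the spread. Means are over positions, and SDs over libraries.

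Site classes do not overlap: AGCT (13 positions), other WRCY/RGYW (23), WRCR/YGYW (30), SRC/GYS (124), WYC/GRW (96), SYC/GRS (139), 1 position without full context, WA/TW (74) and other A:T (174). The positions named are the calls with the largest fold changes whose groups did not overlap, up to 10 per substitution class, up to 5 per direction of each difference between arms, the stop codon, the AGCT bases and the positions with the highest background. Members, classes and lists were chosen with earlier results of these data known. The labels number the libraries by experiment. Deviations of same-numbered AID and AID-E58Q libraries from their group means correlated over all features in all 9 pairs (0.163, 0.195 and 0.550 with UNG), so the numbers pair them by the criterion of over 0.1. Over C:G features alone the values with UNG were -0.0204, 0.0722 and 0.226, and UNG AID of experiment 1 correlated best with another number. Alternatives were DESeq2 1.42.0, limma 3.58.1 (pseudocounts 0.5 and 5), TMM factors, filters, the experiment as a block and leaving out libraries.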

Additional observations from a re-analysis of the deposited data

Results flagged for a closer look

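For 5 substitutions the test of the difference between arms itself passed the threshold, with the AID effect under added UNG set against that under Ugi. On the log2 scale the difference was 4.84 for C151G, 5.06 for C268G and 4.83 for C385G, all larger with UNG, and -5.59 for C534T and -4.94 for C641T, both smaller with UNG (adjusted p = 0.0439 each in edgeR). C268G had 21.5, 10.6 and 52.4 calls per 10000 in UNG AID, against 1.495, 0.504 and 1.67 in Ugi AID.

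Position 700, the C of the AGCT site at 698, was outside the comparisons because UNG AID-E58Q of experiments 1 and 2 had 909 and 980 calls there, and it still showed a signal. C700G averaged 65.6 ± 48.4 calls per 10000 in UNG AID and 4.53 ± 5.75 in UNG AID-E58Q, and C700T 72.8 ± 51.0 in UNG AID and 4.26 ± 5.31 in UNG AID-E58Q (SD, n = 3 each). C700G was seen in 14 of 3089, 12 of 3919 and 83 of 6870 calls in UNG AID, against 1 of 909, 0 of 980 and 2 of 7738 in UNG AID-E58Q. C700T was seen in 16, 14 and 90 of the same calls in UNG AID, against 0, 1 and 2 in UNG AID-E58Q. C>T was therefore the larger of the pair in all 3 UNG AID libraries at this base, on few calls. C700A averaged 42.1 ± 42.7 calls per 10000 in UNG AID and 0.431 ± 0.746 in UNG AID-E58Q.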

How the results depend on the processing

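Leaving out single libraries or the whole of experiment 1 with the block gave 0 to 16 C>T/G>A, 0 to 15 C>A/G>T, 10 to 19 C>G/G>C and 0 to 1 A:T calls in UNG AID over UNG AID-E58Q. The differences from Ugi then numbered 0 to 5, 0 to 1 and 0 to 8 in the C>T/G>A, C>A/G>T and C>G/G>C classes, always named here in this order. Without experiment 1 and without the block, all of these counts were 0 in edgeR (19, 24 and 31 of UNG AID over UNG AID-E58Q at an unadjusted p under 0.05). The experiment as a block, which pairs the libraries, gave 29, 19 and 28 calls, 3 at A:T, 1 C>A/G>T difference from Control, and 35, 6 and 15 differences from Ugi. With the UNG AID-E58Q library of the same experiment as background, the WRCY/RGYW excess was 31.9% C>T/G>A, 13.6% C>A/G>T and 54.6% C>G/G>C. No named substitution called with or without the block turned its direction. With only the compared groups fitted there were 0, 1 and 11 calls, and 0 C>T/G>A and 0 C>G/G>C differences from Ugi. Separate fits per class gave 7, 17 and 27 calls and 12, 1 and 13 differences from Ugi. TMM factors gave 12, 12 and 18 calls, 1 at A:T, and 9, 1 and 11 differences from Ugi. DESeq2 gave 14, 18 and 26 calls, 1 at A:T, 1, 1 and 1 differences from Control, and 46, 9 and 16 from Ugi. limma gave 10 C>G/G>C differences from Ugi with a pseudocount of 0.5, and 9 of C>G/G>C and 4 of C>T/G>A with 5. Scaling by each library's SYC/GRS level, chosen after seeing the data, gave 18 C>T/G>A calls. The C>A/G>T calls at C369A, G384T and G579T were lost under that scaling. The WRCY/RGYW ratio for C>G/G>C was 28.6 from class means, 4.65 from class medians and 18.4 (without UNG AID of experiment 3) to 35.4 (without that of experiment 2) when single libraries were left out, that of C>T/G>A 5.14 and 3.15 (without UNG AID of experiment 3) to 6.30, and the SYC/GRS ratio for C>G/G>C 1.03, 1.06 from medians and 0.778 to 1.39 without single libraries. Of the single substitutions under all alternatives, 2096 values kept their side of the threshold, and 199 lost and 183 gained the call. Of those called in the main fit or in the alternative, 0 reversed direction. Direction was not followed for substitutions called in neither. The cause of these changes was not tested. Few calls limit the ends of the reporter: position 699 had 1046 calls in its shallowest library.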

Other observations

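The C>A calls at C210 and C369 share the sequence GTTC on the strand of the C, so all 8 positions with that sequence were listed, a list chosen after those values were seen and therefore not tested. Their median C>A/G>T frequency was 8.80, 1.27 and 5.84 calls per 10000 in UNG AID (experiments 1, 2 and 3), against 1.03, 1.03 and 1.43 in UNG AID-E58Q. All 8 are WYC/GRW bases, and over that whole class the UNG AID medians were 5.37, 1.01 and 1.47. The value of experiment 2 was thus near its class level, and experiment 1 was high throughout the class. UNG AID lay above UNG AID-E58Q without overlap at 3 of the 8 positions, against 12.4% of all 426 C:G positions, and 3 passed the threshold with the block, against 4.46%. Both counts include C210 and C369, which gave the sequence, so they cannot be read against the shares of all positions. C48A, the only other position in both counts, had 6.01, 3.51 and 7.64 calls per 10000 in UNG AID, against 0.325, 2.91 and 0.889 in UNG AID-E58Q (adjusted p = 0.0303 in edgeR with the block, 0.317 without it).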
